A study of Mus musculus with 12 samples.

Results

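Eph receptors are receptor tyrosine kinases of the cell surface, and their ligands, the ephrins, are held on the surface of neighbouring cells. A-type ephrins carry a lipid anchor and bind mainly EphA receptors, while B-type ephrins span the membrane and bind mainly EphB receptors. On contact the receptor signals into its own cell (forward signalling) and the ephrin into the other (reverse signalling), which changes adhesion and cytoskeleton and helps cells of different kinds to sort and to form boundaries in the gastrulating embryo and the early head. The genes described here were picked by symbol from the gene table: the receptors *Epha1*, *Epha2*, *Epha4*, *Ephb1*, *Ephb2*, *Ephb3* and *Ephb4* and the ligands *Efnb1*, *Efnb2* and *Efna4*, 10 of 23084 gene symbols. All 10 were in the table, and 9 had enough counts to be tested (*Efnb1* did not).

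LHX1 is a LIM homeodomain protein without which the head does not form, and the study looked for genes under its control. RNA-seq was done on embryoid bodies, which are clumps of embryonic stem cells (ESCs) that have started to differentiate, after 2 days and in 4 groups of 3 libraries. WTD16 was the FLAG-Lhx1 wild-type line with doxycycline for 16 h, WTC16 the same line without doxycycline, MUTD16 the FLAG-Lhx1 mutant line with doxycycline for 16 h, and MUTC16 the mutant line without it. Both lines were made in mouse A2lox.cre ESCs, in which a tagged gene placed at the *Hprt* locus is switched on by doxycycline, so all 4 groups carry a transgene. The sources used here do not give the change in the mutant or whether each line is 1 clone. Nor do the labels say that replicates came from separate cultures. The spread behind each p-value is therefore that among these libraries and may be technical.

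Libraries held 4289984 to 4850393 counts. *Lhx1* was at 307, 289 and 293 CPM (counts scaled by TMM to a common depth) in WTD16, against 3.33, 1.81 and 1.12 CPM in WTC16. It was at 250, 260 and 235 CPM in MUTD16, against 0.429, 0.407 and 0.428 CPM in MUTC16, so doxycycline induced the gene in both lines as labelled. The lines were not equal in *Lhx1*. WTD16 over MUTD16 was 0.25 on the log2 scale (adjusted p 6.93e-05, edgeR), and WTC16 over MUTC16 was 2.22 (adjusted p 0.000268, edgeR). *Hprt* averaged 41.6 CPM in WTD16 and 10.5 CPM in WTC16, and 20.1 CPM in MUTD16 and 7.44 CPM in MUTC16. The part of these differences in the responses below was not tested. Counts per gene do not tell the mutant transcript from the wild-type one. Markers of ESCs and epiblast, the early embryonic cell layer, were present throughout, with a summed level of 4867 to 5008 CPM in WTD16, 5126 to 5444 CPM in WTC16, 5322 to 5496 CPM in MUTD16 and 5423 to 5605 CPM in MUTC16. One library of each wild-type group stood apart in genes outside the family. WTC16 replicate 3 had 229 CPM of *Bnip3*, a hypoxia target, against 58.5 and 63.3 CPM in the other libraries of its group, and WTD16 replicate 2 had 1.45% of its counts on the ribosomal RNA gene *Rn45s*, against 0.0884% to 0.265% in the other 11 libraries. Among the WTD16 libraries *Bnip3* was also highest in replicate 3, at 107 CPM against 52.1 and 65.8 CPM. That library was left out only singly, and stayed in when WTC16 replicate 3 and WTD16 replicate 2 were dropped together. Calls that change without the libraries that stood apart are given beside the values.

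Doxycycline changed 4 of the 9 tested members in the wild-type line. The receptor *Ephb1* rose, and the receptors *Epha1* and *Epha2* and the ligand *Efnb2* fell. The windows of 250 bases upstream of the start sites of these 4 genes are shown because they hold the sequence nearest to where each transcript begins. They are from RefSeq, build GRCm38.p6, each written 5′ to 3′ on the strand of its gene, with every CG dinucleotide in capitals. The *Ephb1* window is chr9:102354694-102354943 on the minus strand, the *Epha1* window chr6:42373269-42373518 on the minus strand, the *Epha2* window chr4:141300971-141301220 on the plus strand and the *Efnb2* window chr8:8661243-8661492 on the minus strand.
Ephb1: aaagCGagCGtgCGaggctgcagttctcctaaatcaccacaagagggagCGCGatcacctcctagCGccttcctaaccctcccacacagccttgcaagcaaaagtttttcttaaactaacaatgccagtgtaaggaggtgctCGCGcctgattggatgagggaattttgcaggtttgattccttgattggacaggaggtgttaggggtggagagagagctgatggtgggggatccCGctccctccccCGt
Epha1: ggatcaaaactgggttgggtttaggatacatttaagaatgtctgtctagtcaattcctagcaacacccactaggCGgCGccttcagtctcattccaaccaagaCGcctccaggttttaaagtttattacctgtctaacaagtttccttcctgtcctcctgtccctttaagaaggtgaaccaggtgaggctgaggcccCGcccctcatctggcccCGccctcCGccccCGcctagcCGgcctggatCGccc
Epha2: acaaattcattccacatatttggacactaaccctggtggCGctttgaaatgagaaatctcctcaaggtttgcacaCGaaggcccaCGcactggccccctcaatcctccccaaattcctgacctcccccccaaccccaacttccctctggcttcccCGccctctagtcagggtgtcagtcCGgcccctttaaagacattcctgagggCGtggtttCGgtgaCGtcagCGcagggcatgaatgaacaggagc
Efnb2: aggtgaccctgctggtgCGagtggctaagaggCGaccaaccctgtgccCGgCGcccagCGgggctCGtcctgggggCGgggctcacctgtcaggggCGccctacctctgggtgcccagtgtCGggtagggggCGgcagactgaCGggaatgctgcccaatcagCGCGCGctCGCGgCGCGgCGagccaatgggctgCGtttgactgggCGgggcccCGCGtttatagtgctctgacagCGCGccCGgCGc

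The *Efnb2* window held 27 CG dinucleotides and was 72.0% G and C, while the windows of *Ephb1*, *Epha1* and *Epha2* held 10, 9 and 9 CG and were 54.0%, 54.4% and 55.6% G and C. Over all 32851 RefSeq promoters of the table the medians were 6 CG and 52.4% G and C, and among the 10 members the CG count ran from 7 to 27. At least 10 CG were found in 7 of the 10 member windows, against 37.8% of all promoters. Homeodomain proteins bind DNA around the letters TAAT. On either strand, from 250 bases before to 50 after the start, TAAT was found in 5 of the 10 member promoters (*Epha1*, *Epha2*, *Ephb3*, *Ephb4* and *Efna4*) and in 58.0% of all promoters. The longer words TAATTA and TAATCC, which contain TAAT, were found in 0 of the 10 member promoters, against 5.29% and 7.06% of all promoters. These are matches of letters in a short window and no test of binding.

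*Ephb1*, an EphB receptor known for axon guidance, had the largest change of the members. Its counts were 38, 41 and 38 in WTD16 and 9, 4 and 8 in WTC16, which is 8.69, 9.74 and 8.26 CPM in WTD16 against 2.14, 0.904 and 1.79 CPM in WTC16. No WTD16 library came near the WTC16 range. The log2 fold change was 2.45 (SE 0.29, 95% interval 1.87 to 3.03), a 5.46-fold rise, with an adjusted p of 3.84e-09 in edgeR's quasi-likelihood test over 12322 genes. In the mutant line *Ephb1* was at 6.14, 9.19 and 8.65 CPM in MUTD16, against 6.01, 5.50 and 6.42 CPM in MUTC16, and the groups overlapped. The mutant log2 fold change was 0.42 (SE 0.21), with a 95% interval of -0.0029 to 0.85, and was not called (adjusted p = 0.999 in the same edgeR fit). The wild-type response was the larger by 2.02 on the log2 scale (SE 0.38; adjusted p = 0.000239, edgeR test of the interaction).

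With doxycycline a difference of *Ephb1* between the lines was not called, with 8.90 ± 0.760 CPM in WTD16 and 7.99 ± 1.63 CPM in MUTD16 (SD, n = 3 each), a log2 difference of 0.15 with a 95% interval of -0.25 to 0.55. Without it they held 1.61 ± 0.638 CPM in WTC16 and 5.97 ± 0.462 CPM in MUTC16 (SD, n = 3 each), a log2 difference of -1.88 (SE 0.31; adjusted p 1.57e-06, edgeR). Of the 4 groups WTC16 alone was set apart: its libraries lay below all 9 others, while MUTD16 overlapped both WTD16, with the highest mean, and MUTC16. WTD16 lay above MUTC16 without overlap. The response of the wild-type line, its difference from the mutant response and the difference of the untreated lines all rest on the same 3 WTC16 libraries, which together held 21 *Ephb1* counts. Each of them was under the filter's minimum of 10 counts, and the gene was tested because the other 3 groups passed. The gene lies at chr9:101922128-102354693 on the minus strand (mm10). Its exons share 152 of 7002 bases with the opposite-strand gene *Gm26846*, which was not analysed here, and since the sources do not say whether counting used strand, reads of these bases cannot be assigned.

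*Epha2*, an EphA receptor expressed in ESCs and the epiblast, fell in the wild-type line to 44.3, 54.2 and 53.1 CPM in WTD16, against 74.2, 80.9 and 72.6 CPM in WTC16. Every WTD16 library was below every WTC16 library, and the log2 fold change was -0.59 (SE 0.08; adjusted p 1.75e-07, edgeR). In the mutant line it was at 52.8, 59.0 and 57.3 CPM in MUTD16, against 56.3, 58.6 and 62.9 CPM in MUTC16, which overlapped. The mutant response was -0.07 on the log2 scale with a 95% interval of -0.23 to 0.09. Here too the difference between the responses passed the test, at -0.52 on the log2 scale (SE 0.11; adjusted p 0.00305, edgeR). The order of means was WTC16, MUTC16, MUTD16 and WTD16, and only WTC16, on top, was free of overlap with its neighbour. Between the untreated lines *Epha2* was higher in WTC16 than in MUTC16, by 0.36 on the log2 scale (SE 0.08; adjusted p 0.000119, edgeR), while WTD16 and MUTD16 differed by -0.16 (95% interval -0.33 to 0.01) and were not called. *Epha2* lies at chr4:141301240-141329384 on the plus strand (mm10), and no exon of another gene overlaps its exons.

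*Epha1*, the first receptor of the family to be described, fell in the wild-type line as well, to 39.3, 38.2 and 40.2 CPM in WTD16, against 54.0, 60.4 and 48.6 CPM in WTC16 (log2 fold change -0.47, SE 0.09; adjusted p 0.000102, edgeR). In the mutant line the levels were 83.5, 80.3 and 82.2 CPM in MUTD16, against 90.4, 90.8 and 84.3 CPM in MUTC16. All MUTD16 libraries were again the lower ones, but the change of -0.11 (95% interval -0.25 to 0.03) was not called (adjusted p 0.999, edgeR). The difference between the responses was -0.36 (SE 0.11) and missed the threshold with an adjusted p of 0.0701 in edgeR. Without WTC16 replicate 3 it passed, at -0.43 with an adjusted p of 0.0177, and it also passed when both stand-apart libraries were dropped (adjusted p = 0.0364). In the other 17 of 19 alternatives it was not called. Among these it was -0.27 without WTC16 replicate 2 (adjusted p 0.285, edgeR), and DESeq2 gave an adjusted p of 0.385. *Epha1* was also the member with the largest difference between the lines under doxycycline, -1.06 on the log2 scale (SE 0.08; adjusted p 9.22e-17, edgeR), which is 2.09-fold lower in WTD16 than in MUTD16. Without doxycycline the log2 difference, WTC16 over MUTC16, was -0.70 (SE 0.07; adjusted p 1.17e-11, edgeR), and its libraries fell into 4 separate ranges in the order MUTC16, MUTD16, WTC16 and WTD16.

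*Epha1* lies at chr6:42358487-42373268 on the minus strand (mm10), and 236 of its 3928 exon bases are shared with the opposite-strand gene *Zyx*, which encodes the focal adhesion protein zyxin. *Zyx* moved the same way in the wild-type line and between the lines. In the mutant line its log2 fold change was -0.0029 and its groups overlapped, while those of *Epha1* did not. It averaged 37.3 ± 2.39 CPM in WTD16 and 47.5 ± 5.23 CPM in WTC16, and 97.2 ± 5.65 CPM in MUTD16 and 97.5 ± 2.46 CPM in MUTC16 (SD, n = 3 each). Its log2 fold change was -0.35 in the wild-type line (adjusted p 0.0104, edgeR), and its differences between the lines were -1.38 with doxycycline and -1.04 without. How reads of the shared bases were counted is unknown, and their part in the *Epha1* values was not tested.

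*Efnb2* encodes ephrin-B2, a transmembrane ligand that binds EphB receptors, EphB4 among them, and marks arteries in later embryos. It fell in the wild-type line to 38.2, 33.0 and 34.8 CPM in WTD16, against 54.0, 51.3 and 45.3 CPM in WTC16, without overlap (log2 fold change -0.50, SE 0.09; adjusted p 8.34e-05, edgeR). In the mutant line it was at 47.8, 48.1 and 52.5 CPM in MUTD16, against 58.4, 54.1 and 59.5 CPM in MUTC16. Those groups did not overlap either, yet the change of -0.21 (SE 0.08) had an unadjusted p of 0.0133 and an adjusted p of 0.999 in edgeR. The responses differed by -0.29 (SE 0.12), which was not called (adjusted p 0.26, edgeR), so a difference between the lines in how *Efnb2* responded was not shown. Between the lines it was lower in WTD16 than in MUTD16, at -0.49 on the log2 scale (SE 0.09; adjusted p 1.44e-05, edgeR). For WTC16 over MUTC16 the value was -0.19 with an adjusted p of 0.0537 in edgeR. The adjusted p became 0.0418 without MUTC16 replicate 2 and 0.0312 without WTC16 replicate 1. In the other direction, the value was -0.12 (adjusted p 0.291, edgeR) without WTC16 replicate 3. It was -0.11 (adjusted p 0.315, edgeR) with both stand-apart libraries dropped. The gene lies at chr8:8617434-8661242 on the minus strand (mm10).

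**Figure D1:**
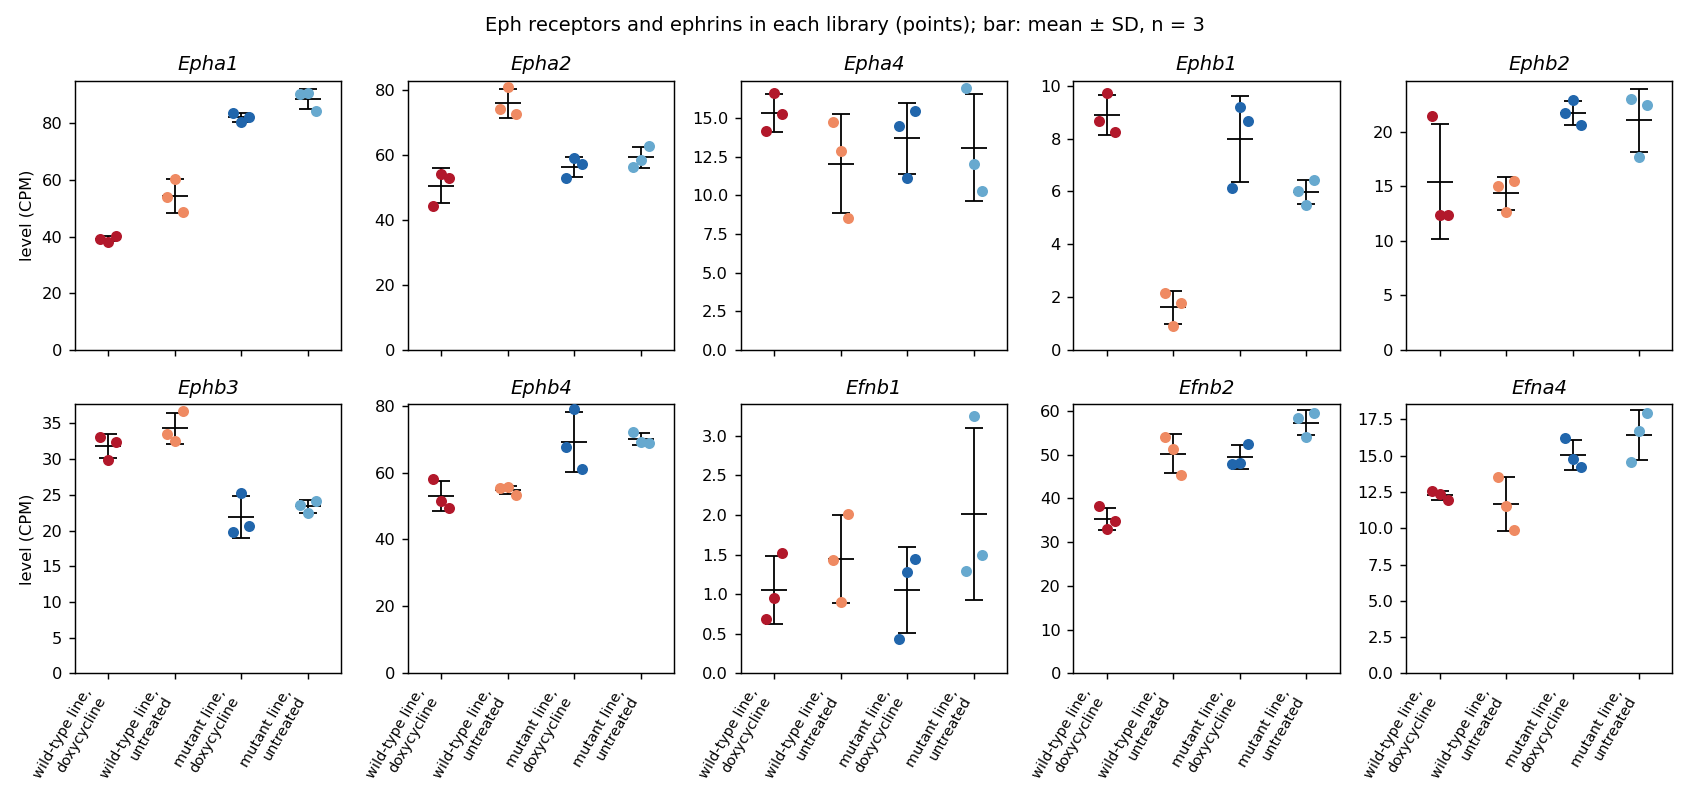
Level of each of the 10 genes in every library (points, vertical axis in CPM from 0, a scale of its own in each panel), with the mean and SD of the 3 libraries of each group. *Ephb1* is lowest in the untreated wild-type line and *Epha2* highest there, *Epha1* and *Efnb2* are lowest in the doxycycline-treated wild-type line, and *Ephb3* is the only tested gene that is higher in both wild-type groups than in both mutant groups.

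Against these 4 calls, 1 higher and 3 lower among 9 tested members, 2.76% of all 12322 tested genes were called higher and 2.56% lower in the wild-type response. The median log2 fold change of the members was -0.049, against -0.0034 over all genes. In the mutant line 0 of the 9 members were called by edgeR, and by DESeq2 and limma-voom it was also 0, where 0.0162% of all genes (2 genes, *Lhx1* and *Hprt*) were called. At an unadjusted p under 0.05 the mutant response held 1 member, *Efnb2*, and 578 of 12322 genes. The test of the difference between the responses called 1 member higher (*Ephb1*) and 1 lower (*Epha2*), against 1.4% and 1.09% of all genes. In bulk RNA a smaller number of cells of a type and less RNA per cell cannot be told apart, and this holds for every level given here.

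**Figure D2:**
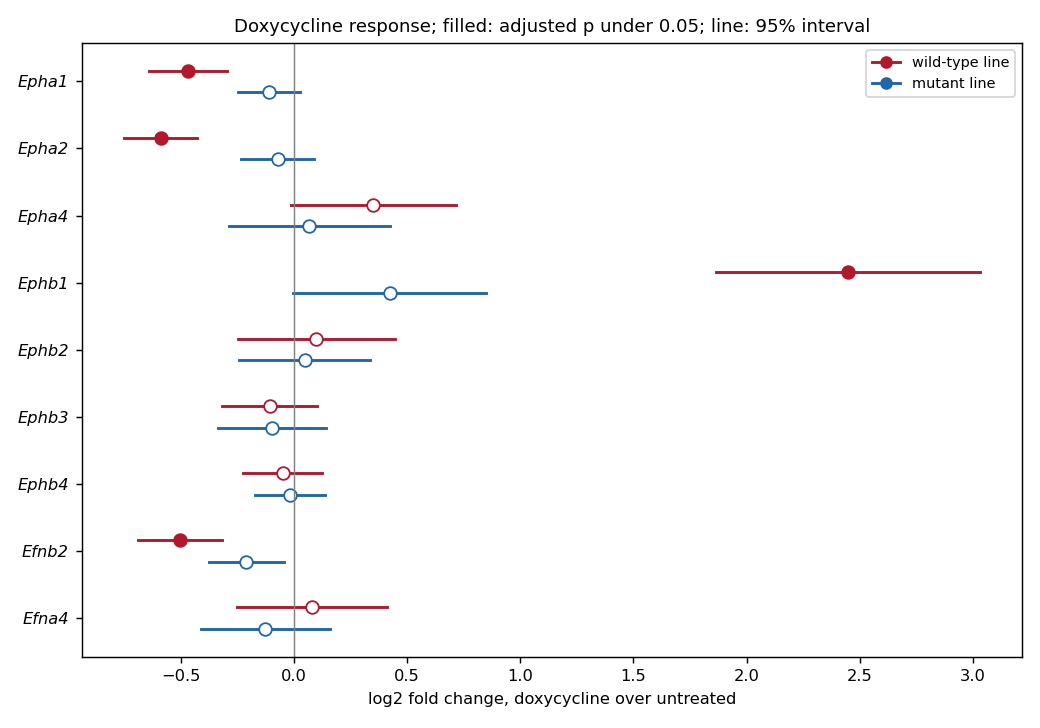
Log2 fold change of the 9 tested genes with doxycycline over without, in the wild-type line (red) and the mutant line (blue), with 95% intervals; filled symbols passed an adjusted p of 0.05. *Ephb1* at 2.45 and *Epha1*, *Epha2* and *Efnb2* between -0.59 and -0.47 are filled in the wild-type line, and no symbol is filled in the mutant line.

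The other 5 tested members were not called in either line. *Ephb4*, the receptor that pairs with ephrin-B2 between veins and arteries, averaged 53.0 ± 4.52 CPM in WTD16 and 54.8 ± 1.26 CPM in WTC16 (SD, n = 3 each), a log2 change of -0.05 with a 95% interval of -0.22 to 0.12. *Ephb3*, a receptor known for cell positioning in the gut, averaged 31.8 ± 1.68 CPM in WTD16 and 34.3 ± 2.20 CPM in WTC16 (SD, n = 3 each), with an interval of -0.32 to 0.10. *Efna4*, a lipid-anchored ligand, averaged 12.3 ± 0.310 CPM in WTD16 and 11.7 ± 1.85 CPM in WTC16 (SD, n = 3 each), with an interval of -0.25 to 0.41. These intervals leave room for small changes in either direction. *Ephb2*, a receptor for B-type ephrins, was at 21.5, 12.4 and 12.4 CPM in WTD16, so 1 library was apart from the other 2, against 14.99, 12.7 and 15.5 CPM in WTC16 (log2 fold change 0.10, 95% interval -0.25 to 0.45). *Epha4*, which binds ephrins of both types and acts in hindbrain segmentation, was at 14.2, 16.6 and 15.2 CPM in WTD16, against 14.8, 12.9 and 8.52 CPM in WTC16. Its log2 change of 0.35 had an interval of -0.01 to 0.72. In the mutant line *Epha4* was at 14.5, 11.1 and 15.5 CPM in MUTD16, against 17.0, 12.01 and 10.3 CPM in MUTC16, and all 4 of its groups overlapped in CPM. The mutant responses of these 5 genes lay between -0.13 (*Efna4*, 95% interval -0.41 to 0.16) and 0.07 (*Epha4*, 95% interval -0.29 to 0.42) on the log2 scale. In mm10 *Epha4* lies at chr1:77367185-77515088 (minus strand), *Ephb2* at chr4:136647539-136835988 (minus), *Ephb3* at chr16:21204755-21223305 (plus), *Ephb4* at chr5:137350109-137378669 (plus) and *Efna4* at chr3:89333390-89338028 (minus).

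*Efnb1*, an X-linked transmembrane ligand at chrX:99136130-99148991 (mm10), was scarce. Its counts were 3, 4 and 7 in WTD16, 6, 4 and 9 in WTC16, 2, 6 and 7 in MUTD16 and 6, 16 and 7 in MUTC16. The ratio of the summed counts, scaled for depth, was 0.731 in the wild-type line (14 counts in WTD16 and 19 in WTC16, exact 95% counting interval 0.339 to 1.54) and 0.523 in the mutant line (15 counts in MUTD16 and 29 in MUTC16, interval 0.26 to 1.01). A difference was not detectable at this depth, and these intervals cover counting error only.

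The lines were also compared with each other. Among 9 tested members 1 was higher and 4 were lower in WTD16 than in MUTD16, where 22.4% of all genes were called higher and 21.9% lower. Among the same 9, 2 were higher and 5 lower in WTC16 than in MUTC16, where 22.6% of all genes were called higher and 23% lower. With doxycycline the calls of members were 4 of 9 without WTD16 replicate 2, without WTD16 replicate 3, or with both libraries that stood apart left out, each time without *Ephb2*. Differences between the lines were common over all genes, so these counts are not read as particular to the members. The median log2 difference of the members was -0.29 with doxycycline and -0.35 without, against -0.0091 and -0.0035 over all genes. The form of *Lhx1* and any other difference between the 2 lines cannot be told apart.

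The clearest receptor in the opposite direction was *Ephb3*. It was at 33.1, 29.9 and 32.4 CPM in WTD16, against 19.7, 25.2 and 20.6 CPM in MUTD16 (log2 difference 0.54, SE 0.11; adjusted p 7.4e-05, edgeR), and at 33.5, 32.6 and 36.8 CPM in WTC16, against 23.6, 22.4 and 24.2 CPM in MUTC16 (log2 difference 0.55, SE 0.11; adjusted p 3.51e-05, edgeR). All 6 wild-type libraries were above all 6 mutant libraries. *Ephb4* had the reverse arrangement, with 58.1, 51.5 and 49.4 CPM in WTD16 against 67.7, 78.8 and 61.0 CPM in MUTD16 (log2 difference -0.38, SE 0.08; adjusted p 0.000106, edgeR). Without doxycycline it had 55.4, 55.6 and 53.4 CPM in WTC16, against 72.1, 69.0 and 68.9 CPM in MUTC16 (log2 difference -0.35, SE 0.08; adjusted p 3e-04, edgeR). The *Ephb4* exons share 33 of 4640 bases with *Zan* on the opposite strand, which held 3, 5, 1 and 2 counts in WTD16, WTC16, MUTD16 and MUTC16 in all.

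*Ephb2* was also lower in the wild-type line. In MUTD16 it was at 21.7, 22.9 and 20.6 CPM, so the single high WTD16 library (21.5 CPM) overlapped this range while the other 2 did not. The log2 difference of WTD16 over MUTD16 was -0.49 (SE 0.16; adjusted p 0.00839, edgeR). The call was lost without WTD16 replicate 2 (-0.37, adjusted p = 0.0676), without WTD16 replicate 3 (-0.35, adjusted p = 0.0917) and with both stand-apart libraries dropped (-0.37, adjusted p = 0.0585), and without WTD16 replicate 1, the high one, the difference was -0.81. Without doxycycline the levels of 14.99, 12.7 and 15.5 CPM in WTC16, against 23.0, 17.7 and 22.5 CPM in MUTC16, gave a log2 difference of -0.55 (SE 0.16; adjusted p 0.00432, edgeR). *Efna4* was at 13.6, 11.5 and 9.86 CPM in WTC16, against 14.6, 16.7 and 18.0 CPM in MUTC16, a log2 difference of -0.50 (SE 0.15; adjusted p 0.00596, edgeR). That call was lost without WTC16 replicate 3 (-0.39, adjusted p = 0.0548) and with both stand-apart libraries dropped (adjusted p = 0.0603). With doxycycline *Efna4* was at 12.6, 12.4 and 11.96 CPM in WTD16, against 16.2, 14.7 and 14.2 CPM in MUTD16, a log2 difference of -0.29 that was not called. *Efna4* exons share 168 of 1599 bases with the opposite-strand gene *4731419I09Rik*.

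**Figure D3:**
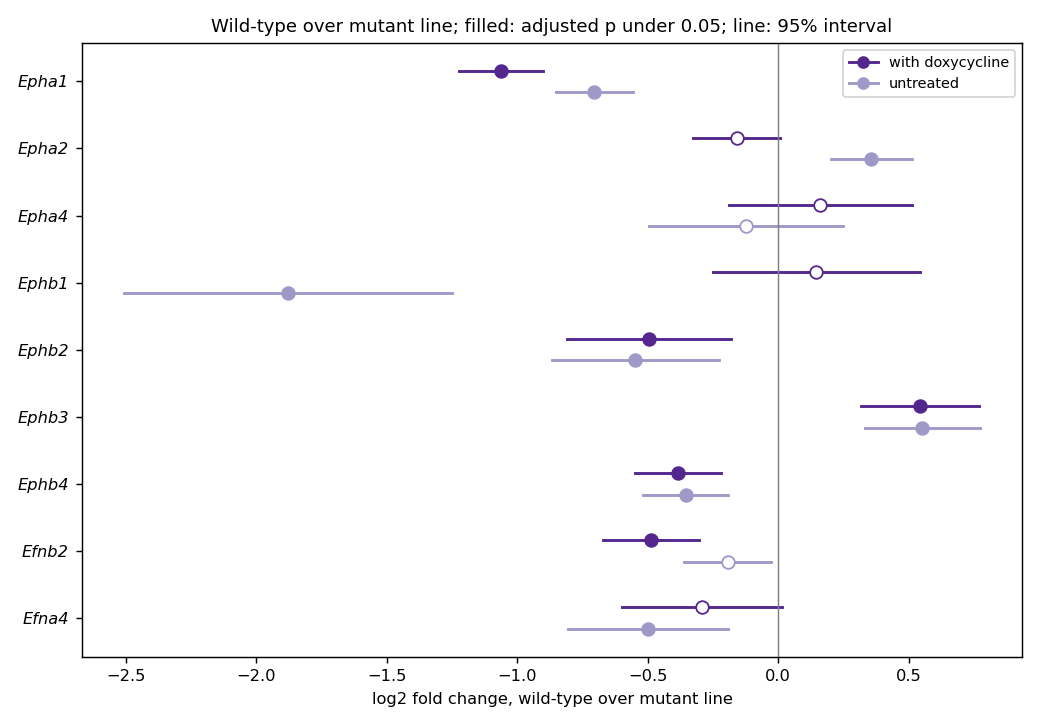
Log2 difference of the 9 tested genes, wild-type over mutant line, with doxycycline (dark) and without (light), with 95% intervals; filled symbols passed an adjusted p of 0.05. *Epha1* lies lowest with doxycycline (-1.06) and *Ephb1* lowest without (-1.88), and *Ephb3* is to the right of 0 in both.

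To set levels of different genes side by side, CPM was divided by the kilobases of merged exons, giving FPKM. On this scale *Epha1*, *Epha2* and *Ephb4* held the first 3 places of the 22 mouse Eph and ephrin genes in every group, and their order differed. *Ephb4* led in WTD16 with 11.4 FPKM, ahead of *Epha2* (10.8 FPKM) and *Epha1* (9.99 FPKM), and the library ranges of neighbours in this order overlapped (10.6 to 12.5, 9.49 to 11.6 and 9.74 to 10.2 FPKM). The leader in WTD16 depends on the gene length used: with the longest transcript *Epha2* held 23.99% of receptor FPKM there and *Ephb4* 22.7%. *Epha2* led in WTC16 with 16.2 FPKM, ahead of *Epha1* (13.8 FPKM) and *Ephb4* (11.8 FPKM). *Epha1* led in both mutant groups, with 20.9 FPKM in MUTD16 and 22.5 FPKM in MUTC16, and *Ephb4* followed with 14.9 FPKM in MUTD16 and 15.1 FPKM in MUTC16. Among the ligands *Efna4* and *Efnb2* stood first, *Efna4* with 7.69 FPKM in WTD16, 7.29 FPKM in WTC16, 9.42 FPKM in MUTD16 and 10.3 FPKM in MUTC16. *Efnb2* had 5.15 FPKM in WTD16, 7.32 FPKM in WTC16, 7.22 FPKM in MUTD16 and 8.36 FPKM in MUTC16, and in WTC16 its library range of 6.61 to 7.88 FPKM overlapped that of *Efna4* (6.17 to 8.48 FPKM). *Ephb1* was a minor receptor in FPKM, with 1.27 FPKM in WTD16, 0.230 FPKM in WTC16, 1.14 FPKM in MUTD16 and 0.853 FPKM in MUTC16.

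The summed FPKM of EphA receptors was 23.7 to 26.2 in WTD16 and 31.2 to 36.5 in WTC16, while that of EphB receptors was 18.9 to 21.5 in WTD16 and 19.3 to 20.2 in WTC16. EphA receptors thus made up 55.9 ± 3.08% of receptor FPKM in WTD16 and 63.2 ± 2.29% in WTC16, and 61.5 ± 3.10% in MUTD16 and 63.2 ± 1.17% in MUTC16 (SD, n = 3 each). The share of *Ephb1* in EphB receptor FPKM was 6.40 ± 0.737% in WTD16 and 1.17 ± 0.473% in WTC16, and 4.91 ± 1.03% in MUTD16 and 3.71 ± 0.168% in MUTC16 (SD, n = 3 each). The share of *Efnb2* in ligand FPKM was 22.9 ± 1.18% in WTD16 and 30.2 ± 3.51% in WTC16, and 23.6 ± 1.32% in MUTD16 and 25.2 ± 1.47% in MUTC16 (SD, n = 3 each). The 10 members together made up 80.6% of the family's FPKM in WTD16, 83.2% in WTC16, 79.8% in MUTD16 and 80.7% in MUTC16. These shares depend on the gene length used: with the longest transcript in place of merged exons the *Efnb2* share was 29.6% in WTD16 and 37.8% in WTC16. *Efna4* then held 30.9% in WTD16 and 26.2% in WTC16. By mean share *Efna4* was ahead in WTD16 and *Efnb2* in WTC16 with either length. The order of these 2 ligands turned in the mutant groups only. With the longest transcript *Efnb2* held 30.5% in MUTD16 and 32.25% in MUTC16, ahead of *Efna4* with 27.8% in MUTD16 and 27.7% in MUTC16.

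**Figure D4:**
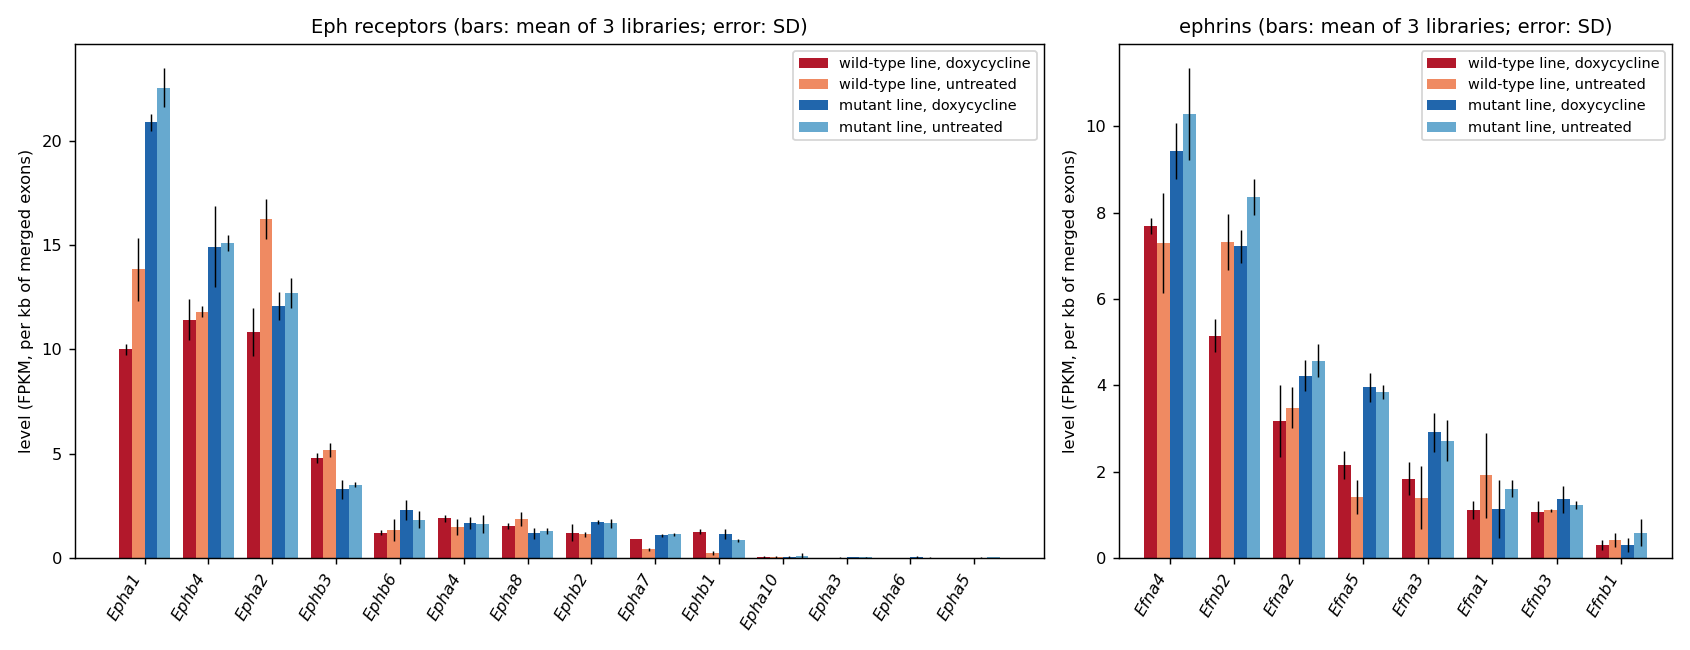
Mean level of the 14 Eph receptors and 8 ephrins of the mouse in FPKM of merged exons (bars from 0, error bars SD of 3 libraries) in the 4 groups. *Epha1*, *Epha2* and *Ephb4* are the tallest receptors and *Efna4* and *Efnb2* the tallest ligands, and *Epha3*, *Epha5*, *Epha6* and *Epha10* are near 0.

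Of the other 12 Eph and ephrin genes 8 were tested. In the wild-type response 1 was called higher and 0 lower, where 2.76% of all genes were called higher and 2.56% lower. In the mutant response 0 were called, where 0.0162% of all genes were called. In the difference between the responses the same 1 gene was called higher and 0 lower, against 1.4% and 1.09% of all genes. That gene was *Epha7*, a receptor of the developing brain, at 9.14, 9.03 and 9.13 CPM in WTD16, against 4.52, 3.17 and 4.71 CPM in WTC16 (log2 fold change 1.14, SE 0.22; adjusted p 0.000228, edgeR). It averaged 10.8 ± 0.726 CPM in MUTD16 and 11.4 ± 0.658 CPM in MUTC16 (SD, n = 3 each). As with *Ephb1*, WTC16 was the low group, and WTC16 over MUTC16 gave -1.46 on the log2 scale (SE 0.21; adjusted p 4.94e-08, edgeR). The difference between the responses was 1.21 (SE 0.28; adjusted p 0.00473, edgeR), a call that DESeq2 did not make (adjusted p = 0.0665).

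Among the remaining ligands *Efna5*, which guides retinal axons, averaged 8.69 ± 1.34 CPM in WTD16 and 5.67 ± 1.58 CPM in WTC16, and 15.9 ± 1.38 CPM in MUTD16 and 15.5 ± 0.677 CPM in MUTC16 (SD, n = 3 each). Its wild-type change of 0.61 on the log2 scale was not called (adjusted p 0.0935, edgeR), while both differences between the lines were (-0.88 with doxycycline and -1.45 without). *Efna3* was called lower in the wild-type line with doxycycline (-0.66) and without (-0.94), but the first call was lost in 4 of 14 alternatives and the second without WTC16 replicate 1 (adjusted p = 0.0564). *Ephb6*, a receptor whose kinase is inactive, was lower in WTD16 than in MUTD16 (-0.90, SE 0.24; adjusted p 0.00185, edgeR), and *Epha8* was higher in WTC16 than in MUTC16 (0.54, adjusted p 0.031, edgeR), a call lost in 4 of 14 alternatives. *Efna1*, *Efna2* and *Efnb3* passed in no comparison. *Epha3*, *Epha5*, *Epha6* and *Epha10* were too rare to test: *Epha5* held 0 counts in WTD16 and in WTC16, 5 in MUTD16 and 11 in MUTC16, and *Epha6* held 0 in WTD16 and in WTC16, 5 in MUTD16 and 2 in MUTC16.

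The pathway lists hold genes that act with the receptors and ligands. In the wild-type response, where 2.76% of all genes were called higher and 2.56% lower, of 20 kinases and adaptors of forward signalling 0 were called higher and 1 lower, and of 11 partners of reverse signalling and 7 tested sheddases and phosphatases 0 were called. In the mutant response 0 genes of these 3 lists were called. The gene that passed was *Inppl1*, which encodes the lipid phosphatase SHIP2, known to bind EphA2. It averaged 101.8 ± 6.82 CPM in WTD16 and 130.5 ± 9.12 CPM in WTC16, and 166.3 ± 14.2 CPM in MUTD16 and 165.3 ± 1.91 CPM in MUTC16 (SD, n = 3 each). Its log2 fold change was -0.36 (SE 0.07; adjusted p 7.46e-05, edgeR) in the wild-type line. The difference from the mutant response was -0.37 (SE 0.09; adjusted p 0.00765, edgeR), and it was lost in DESeq2 and without MUTD16 replicate 2 (adjusted p up to 0.0763).

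Between the lines, with doxycycline, 1 kinase or adaptor was higher and 11 lower of 20, 1 reverse signalling partner higher and 3 lower of 11, and 2 sheddases or phosphatases higher and 3 lower of 7, where 22.4% of all genes were called higher and 21.9% lower. Without doxycycline the counts were 1 higher and 10 lower, 1 higher and 6 lower, and 1 higher and 3 lower in the same lists, where 22.6% of all genes were called higher and 23% lower. The median log2 difference of the kinases and adaptors was -0.25 with doxycycline and -0.22 without. *Pdzrn3*, a ubiquitin ligase with PDZ domains, had the largest of these differences among the genes named by the rule, with 9.61 ± 0.962 CPM in WTD16 and 26.3 ± 1.93 CPM in MUTD16 (SD, n = 3 each; log2 difference -1.44, SE 0.15; adjusted p 7.93e-12, edgeR). *Mmp14*, a membrane metalloprotease that cleaves EphA2, averaged 16.5 ± 1.90 CPM in WTC16 and 39.0 ± 5.18 CPM in MUTC16 (SD, n = 3 each; log2 difference -1.24, SE 0.12; adjusted p 7.89e-13, edgeR). *Pard6a*, a polarity protein of the PAR6 group, went the other way, at 12.3 ± 2.21 CPM in WTC16 and 5.36 ± 1.30 CPM in MUTC16 (SD, n = 3 each; log2 difference 1.20, SE 0.21; adjusted p 2.82e-06, edgeR). *Grb10*, *Rasa1*, *Sdcbp*, *Mmp2* and *Ptprf* were called lower in the wild-type line under both conditions, with log2 differences of -0.78 to -0.21 with doxycycline.

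Among 9961 genes with a mean of at least 5 CPM, the log2 CPM of *Ephb1* over the 12 libraries was most like that of *Id3* (Pearson r = 0.966), *Fzd2* (r = 0.959) and *Pam* (r = 0.95). *Id3* averaged 47.9 ± 3.81 CPM in WTD16 and 16.4 ± 2.67 CPM in WTC16, and 44.5 ± 5.90 CPM in MUTD16 and 42.3 ± 3.95 CPM in MUTC16 (SD, n = 3 each), so, like *Ephb1*, it was lowest in WTC16. *Fzd2* and *Pam* were also lower in WTC16, with 34.9 and 11.95 CPM in WTC16 against 48.7 and 19.7 CPM in MUTC16. For *Epha2* the most alike were *Arl4a* (r = 0.91), *Ccdc136* (r = 0.909) and *Nfatc2ip* (r = 0.901). *Ccdc136* averaged 34.9 ± 2.65 CPM in WTD16 and 52.2 ± 5.42 CPM in WTC16, and 38.2 ± 1.35 CPM in MUTD16 and 41.2 ± 1.31 CPM in MUTC16 (SD, n = 3 each), highest in WTC16 like *Epha2*. The 12 points fall into 4 groups and share their libraries, so these correlations are a description. The genes were picked for this likeness, so sharing a low or high WTC16 follows from the choice.

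Markers of other cell types moved with some of these groups, and their part in the results was not tested. Neural ectoderm markers summed to 138 to 148 CPM in WTD16, 111 to 126 CPM in WTC16, 249 to 275 CPM in MUTD16 and 249 to 268 CPM in MUTC16. In the wild-type response, where 2.76% of all genes were called higher and 2.56% lower, 2 of the 5 tested (*Pax6* and *Tubb3*) were called higher. In the difference between the responses 1 of these 5, *Pax6*, was called. Primitive and extraembryonic endoderm markers summed to 182 to 196 CPM in WTD16, 147 to 163 CPM in WTC16, 227 to 241 CPM in MUTD16 and 217 to 231 CPM in MUTC16, with 3 of 7 tested (*Foxa2*, *Lama1* and *Sparc*) higher in the wild-type response. Primitive streak and mesoderm markers had 2 of 4 tested (*Eomes* and *Lhx1*) higher. Of these *Lhx1* is the gene that doxycycline switches on, and it was also called in the mutant response. ESC and epiblast markers had 2 higher (*Fgf5* and *Zfp42*) and 2 lower (*Nanog* and *Pou5f1*) of 10. Trophoblast and fibroblast markers had 0 called in that response by edgeR, of 5 and 7 tested. Between the lines calls did not all follow the sums. With doxycycline 22.4% of all genes were called higher and 21.9% lower. Of neural markers *Pax6* and *Tubb3* were higher and *Nes* lower in WTD16 than in MUTD16. Of endoderm markers *Foxa2* and *Lama1* were higher and *Dab2*, *Gata4* and *Sparc* lower. Without doxycycline 22.6% were called higher and 23% lower. In WTC16 0 of either list were higher than in MUTC16, with *Ncam1*, *Nes*, *Pax6*, *Col4a1*, *Gata4* and *Sparc* lower.

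Endothelial cells use *Efnb2* and *Ephb4*, and blood and endothelium markers summed to 57.6 to 71.5 CPM in WTD16, 60.7 to 70.4 CPM in WTC16, 40.8 to 49.4 CPM in MUTD16 and 41.7 to 51.6 CPM in MUTC16. Of the 12 markers of this list *Emcn*, *Cdh5* and *Tie1* were at or near 0, singled out after their values were seen. *Emcn* held 0 counts in every library, *Cdh5* held 4 in WTD16, 4 in WTC16, 1 in MUTD16 and 2 in MUTC16, and *Tie1* held 1, 3, 1 and 3 in the same order. All markers but *Emcn* had counts in every group. *Sox17*, *Nrp1*, *Gata1* and *Runx1* were, like *Cdh5* and *Tie1*, too rare to test. *Sox17*, for 1, held 4 counts in WTD16, 4 in WTC16, 10 in MUTD16 and 6 in MUTC16. *Tek* averaged 10.1 CPM in WTD16, 12.9 CPM in WTC16, 8.34 CPM in MUTD16 and 7.52 CPM in MUTC16, and *Flt1* averaged 5.54, 2.66, 7.83 and 9.47 CPM in the same order of groups. *Tal1* averaged 4.69, 4.44, 4.89 and 4.67 CPM and *Kdr* 2.33, 1.37, 2.83 and 2.47 CPM. *Pecam1*, which ESCs also express, was the largest part, at 38.6 CPM in WTD16 and 39.8 CPM in WTC16, and 18.3 CPM in MUTD16 and 18.5 CPM in MUTC16. Of 5 tested markers of this list 1 was called in the wild-type response (*Flt1*, higher). There 2.76% of all genes were called higher and 2.56% lower. In that response *Efnb2* was called lower and *Ephb4* was not called, and the part of endothelial cells was not tested. With doxycycline *Pecam1* was called higher in WTD16 than in MUTD16, where 22.4% of all genes were called higher. Without it *Pecam1* and *Tek* were higher and *Flt1* lower in WTC16 than in MUTC16, where 22.6% were called higher and 23% lower.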

How the data were processed

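The deposited table holds raw counts of reads per gene symbol for 12 libraries (23086 rows, 23084 different symbols), and these counts were used as deposited. Per the submitters' processing notes, Trimmomatic 0.33, TopHat2 2.1.1, the mm10 genome and limma were used. How reads were counted, with which annotation and whether by strand, was not given in the sources used here. Per the labels, libraries were made with a TruSeq RNA kit. Columns were matched to libraries by title, and all replicates of a group differed by more than sampling noise (lowest chi-square per degree of freedom 1.11). Spreadsheet software had turned 27 symbols (0.15% of counts) into dates; they stayed in the fit.

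All 12 libraries were fitted together in edgeR 4.0.16 (R 4.3.3) with 1 mean per group, TMM scaling, the filterByExpr filter (minimum count 10, total 15; 12322 genes with 99.8% of counts) and the robust quasi-likelihood test, which was tested on simulated counts. Calls needed a Benjamini-Hochberg adjusted p under 0.05 over all genes of a comparison. SE is the size of the log2 fold change over the square root of F. CPM came from TMM-scaled totals, and 1 count is 0.204 to 0.238 CPM. FPKM used merged exons of the GENCODE M21 annotation of the same build. The 5 comparisons were doxycycline over none within the wild-type line and within the mutant line, the wild-type response minus the mutant response, and wild-type over mutant line with and without doxycycline. Alternatives were RLE and upper-quartile scaling, no filter, DESeq2 1.42.0, limma-voom (limma 3.58.1), a replicate block, only the libraries compared, leaving out each library, dropping both stand-apart libraries (WTC16 replicate 3 and WTD16 replicate 2), and the longest transcript for shares. The members, gene lists, tests and alternatives were chosen with earlier results of these data known. All members and all Eph and ephrin genes are named. From a pathway list the called genes of lowest adjusted p are named, at most 3 for the wild-type response and at most 2 for the difference of responses and for either comparison of lines. For each member called in the difference of responses, the 3 most correlated named genes with at least 5 CPM are given. *Zyx* and *Zan* are named for exon overlap, and *Bnip3*, *Rn45s* and the marker genes printed singly were chosen after their values were seen. Promoters were matched by symbol in RefSeq (10 of 10 members). No protein sequences were used here. One gene list is not reported here.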

Additional observations from a re-analysis of the deposited data

Results flagged for a closer look

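The responses to doxycycline differed between the lines, by edgeR's test of the difference itself, in 2 members, and among the other family and pathway genes in 2 more; over all genes the test called 307. The wild-type response of *Ephb1* minus the mutant one was 2.02 on the log2 scale (adjusted p = 0.000239), and that of *Epha2* was -0.52 (adjusted p = 0.00305). Both calls held in all 19 alternatives run, with adjusted p up to 0.00579 for *Ephb1* and up to 0.0429 for *Epha2*. Of the other genes, *Epha7* differed by 1.21 (adjusted p = 0.00473, lost in DESeq2) and *Inppl1* by -0.37 (adjusted p = 0.00765, lost in DESeq2 and without MUTD16 replicate 2). For *Ephb1* and *Epha2* only WTC16 was free of overlap with its neighbour in the order of means. For *Epha7* WTC16 was the lowest group. Its WTD16 libraries (9.03 to 9.14 CPM) also lay below those of MUTD16 (10.25 to 11.62 CPM) and MUTC16 (10.69 to 12.01 CPM).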

How the results depend on the processing

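Over 45 pairs of a tested member and a comparison, 666 values under alternatives were computed: 657 stayed on their side of the threshold, 5 lost a call, 4 gained one and 0 reversed a called direction. In 41 pairs no alternative changed the call; the other 4 (*Epha1* in the difference of responses, *Ephb2* with doxycycline, *Efna4* and *Efnb2* without) are given beside their values. Counts of called members stayed within 1.5 times the reported ones. With a replicate block, 4 members were called in the wild-type response, 0 in the mutant response, 2 in the difference, 5 between lines with doxycycline and 7 without, the same counts as without it. Over all genes, the deviations of libraries of the same number were hardly correlated (-0.0615 to 0.0794). That does not settle whether the numbers pair samples, and *Bnip3* was highest in replicate 3 of both wild-type groups. Over all genes, DESeq2 called 380 in the wild-type response, against 655 in edgeR, and 153 in the difference, against 307; with only the libraries compared, 5 were called in the mutant response, against 2. Of 44 shares of FPKM, 26 moved by more than their SD with the longest transcript. At 10 counts, about 2.04 to 2.38 CPM, *Efnb1* and 4 other family genes were too rare to test.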
